A study of Homo sapiens with 2 samples.

Results

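The genes described here encode the enzymes and transporters of glycolysis, the oxygen sensors of the cell and genes that respond to low oxygen. They were chosen by name, as 39 gene symbols, by a rule that used no measured value. Earlier results of these data were known when the symbols and the role groups used below were chosen. A probe set, the group of short probes that reads 1 stretch of a transcript, was taken where the platform annotation gave it exactly 1 of these symbols, and array control probe sets were left out. This found 78 probe sets of 36 genes, of 19775 genes named on the array, while SLC16A1, SLC16A3 and CA9 are not analysed here. The RNA came from HEK293T cells, a human embryonic kidney cell line with the large T antigen of simian virus, sorted for GFP 48 h after transient transfection with polyethylenimine. One group of cells carried the plasmid pcDNA3.1-IRX1::GFP, which encodes the homeobox transcription factor IRX1 joined to GFP (IRX1::GFP, 1 array). The other group carried pcDNA3.1-GFP, which encodes GFP alone (GFP control, 1 array). Expression from the strong viral promoter of this plasmid was transient, and whether the RNA on an array came from 1 culture or from several was not settled.

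Glycolysis splits glucose into pyruvate in the cytosol. Glucose enters through facilitative transporters and is trapped by hexokinase, phosphofructokinase commits it to breakdown, and the lower steps yield ATP and pyruvate, which lactate dehydrogenase can turn into lactate. When oxygen is plentiful, prolyl hydroxylases mark the alpha subunits of the hypoxia-inducible factors (HIF) for the ubiquitin ligase that contains VHL, and when oxygen is low the subunits are spared and switch on genes of glycolysis, blood vessel growth and mitophagy. Dividing cell lines such as HEK293T use glycolysis heavily in culture.

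Each deposited value was a MAS5 signal, which is a fluorescence intensity given on a linear scale after scaling of each array by the authors. The signal with IRX1::GFP was divided by that in the GFP control for the brightest probe set of a gene, and the log2 of this ratio is above 0 where IRX1::GFP had more signal. A gene was kept where the mean of its 2 signals reached 183, the 50th percentile of all probe sets, and it was called higher or lower at 2-fold, which is 1 on the log2 scale. All 36 genes were kept, with 65 of their 78 probe sets. Neither condition has a replicate, so no error between cultures and no p-value can be given, and precision is limited by the number of arrays. Noise could be gauged only from how far probe sets of the same gene differed, which gave an SD of 0.49 (log2) over 5930 genes. Background was the level under which 90% of 107 olfactory receptor probe sets lay, 179 on the IRX1::GFP array and 143 on the GFP control array. A bulk RNA sample cannot tell fewer expressing cells from less RNA per cell.

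Several facts of the arrays bear on the results. The only IRX1 probe set read 57.0 with IRX1::GFP and 33.1 in the GFP control, neither above background, so it does not check the labels. The ratio of the 3-prime to the 5-prime control probe set, a sign of RNA quality, was 1.64 with IRX1::GFP and 3.23 in the GFP control for ACTB, and 1.01 with IRX1::GFP and 1.22 in the GFP control for GAPDH. The log2 ratio of the ACTB controls was smaller toward the 3-prime end, at 1.24 for the 5-prime end, 0.74 for the middle and 0.26 for the 3-prime end. Of 8 marker genes listed for HEK293T cells, 8 were above background with IRX1::GFP and 6 in the GFP control, where PAX2 and LHX1 were not. Their summed signals were 52571 with IRX1::GFP and 57437 in the GFP control. VIM was the largest part of both sums, at 28168 with IRX1::GFP and 38213 in the GFP control. Single markers moved in both directions, with LIN28B 6.09-fold lower, NEFL 2.73-fold higher and KRT18 2.19-fold higher with IRX1::GFP. Of 10 markers of blood cells, fibroblasts, hepatocytes and endothelium, 3 were above background with IRX1::GFP and 6 in the GFP control, with summed signals of 2120 with IRX1::GFP and 1615 in the GFP control. The part of these differences in the results was not tested.

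Promoter sequences are shown for the 5 genes with the largest ratios among those called, to place the letters that HIF binds beside the genes that were higher. Each is the 250 bases before a transcript start listed by RefSeq (GRCh38.p14), written 5′ to 3′ on the strand of the gene. Capitals mark ACGTG or GCGTG, the core letters of a hypoxia response element, on either strand (CACGT or CACGC when read on the strand shown). In TXNIP they also mark 2 copies of CACGAG that are 5 bases apart, an arrangement searched on both strands and chosen after the sequence was seen, of the kind that carries the glucose response of this gene. PFKFB4 (chr3:48556804-48557053, minus strand), PFKL (chr21:44299803-44300052, plus strand), PFKFB3 (chr10:6144671-6144920, plus strand), ENO2 (chr12:6914330-6914579, plus strand) and TXNIP (chr1:145996580-145996829, minus strand) read as follows.
PFKFB4: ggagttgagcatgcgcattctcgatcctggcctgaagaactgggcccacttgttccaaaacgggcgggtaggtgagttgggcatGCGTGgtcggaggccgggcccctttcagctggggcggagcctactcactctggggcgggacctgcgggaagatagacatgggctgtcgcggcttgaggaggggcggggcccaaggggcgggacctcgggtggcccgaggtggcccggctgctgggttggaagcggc
PFKL: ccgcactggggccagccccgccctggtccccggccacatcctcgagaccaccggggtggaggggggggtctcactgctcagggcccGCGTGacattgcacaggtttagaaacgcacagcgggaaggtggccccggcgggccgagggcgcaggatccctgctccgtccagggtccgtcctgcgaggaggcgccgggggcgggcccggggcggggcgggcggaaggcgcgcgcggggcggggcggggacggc
PFKFB3: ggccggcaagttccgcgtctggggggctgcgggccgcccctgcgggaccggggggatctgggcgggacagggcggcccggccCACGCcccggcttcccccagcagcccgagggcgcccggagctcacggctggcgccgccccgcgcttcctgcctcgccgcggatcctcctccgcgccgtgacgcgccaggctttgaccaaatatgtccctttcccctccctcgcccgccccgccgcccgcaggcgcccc
ENO2: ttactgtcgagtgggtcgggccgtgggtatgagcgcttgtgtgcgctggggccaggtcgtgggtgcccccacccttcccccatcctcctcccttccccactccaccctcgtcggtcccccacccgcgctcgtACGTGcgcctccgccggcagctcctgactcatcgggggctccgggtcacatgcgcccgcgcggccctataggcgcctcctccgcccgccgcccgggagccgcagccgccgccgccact
TXNIP: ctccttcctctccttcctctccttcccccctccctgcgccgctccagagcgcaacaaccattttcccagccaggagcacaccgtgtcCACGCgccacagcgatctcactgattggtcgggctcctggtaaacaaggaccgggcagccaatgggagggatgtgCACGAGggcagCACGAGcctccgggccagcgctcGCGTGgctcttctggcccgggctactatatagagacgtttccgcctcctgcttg
PFKFB3 and TXNIP have a further start in the RefSeq table, and the one listed before it is shown.

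Each of these 5 windows held at least 1 core, and so did ALDOC, the sixth gene called, with 5. The GCGTG of PFKL, PFKFB3 and PFKFB4 lay 164, 168 and 166 bases before the start, and ENO2 had a single ACGTG at 118 bases. Such letters are common. Of 9968 genes that were kept on the arrays and matched a promoter in the table, 58.0% held ACGTG or GCGTG in the same window, and so did 43.1% of all 27305 genes that RefSeq table holds. Among the genes described here 31 matched and 20 held a core, 64.5%, with 6 of 6 called genes and 14 of 25 genes within 2-fold. BNIP3 held 6 cores, LDHA 5, and GAPDH 2, and none of these genes was called. CACGTG, the E-box, contains ACGTG on both strands and so counts as 2 cores, and it was in 5 of the 31 windows and in 9.10% of the 9968. The paired CACGAG was in 2 of the 9968 windows. SLC2A3, VHL, VEGFA, BNIP3L and NDRG1 were not matched. A match is a description of letters and not a binding site.

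Among these genes more signals went up than down with IRX1::GFP. The 2-fold limit was passed upwards by 6 of the 36, namely PFKFB4, PFKL, PFKFB3, ENO2, TXNIP and ALDOC, against a share of 10.4% higher among all 12193 genes kept. None was at least 2-fold lower, against 5.34% of all genes kept. The 6 genes are 16.7% of the 36. The ratio was above 0 for 27 genes and below 0 for 9, whereas 54.1% of all genes kept were above 0, and it was above 0 for 25 genes and below 0 for 11 after median centring and after quantile normalization. The median log2 ratio of the 36 was 0.42, and that of all genes kept 0.07. Beyond the SD between probe sets, 17 genes (47.2%) were higher, compared with 26.6% of all genes kept, and 4 (11.1%) were lower, compared with 19.2%. Over all genes kept the calls were 1267 higher and 651 lower, and 1000 higher and 798 lower after loess. The counts depend on the array scale, since median centring left 5 genes at 2-fold, and on the filter, since 3 of 30 genes (10%) were called with a filter at the 75th percentile, where 6.68% of all genes were higher and 5.41% lower. Without a filter the same 6 of 36 (16.7%) stood beside 17.5% of all 19775 genes higher and 10% lower, so the larger share among these genes was not seen there. With only _at probe sets, which carry no suffix for shared probes, 3 of 18 genes were higher and 0 lower, beside 10.2% of all 9302 genes higher and 5.83% lower.

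**Figure D1:**
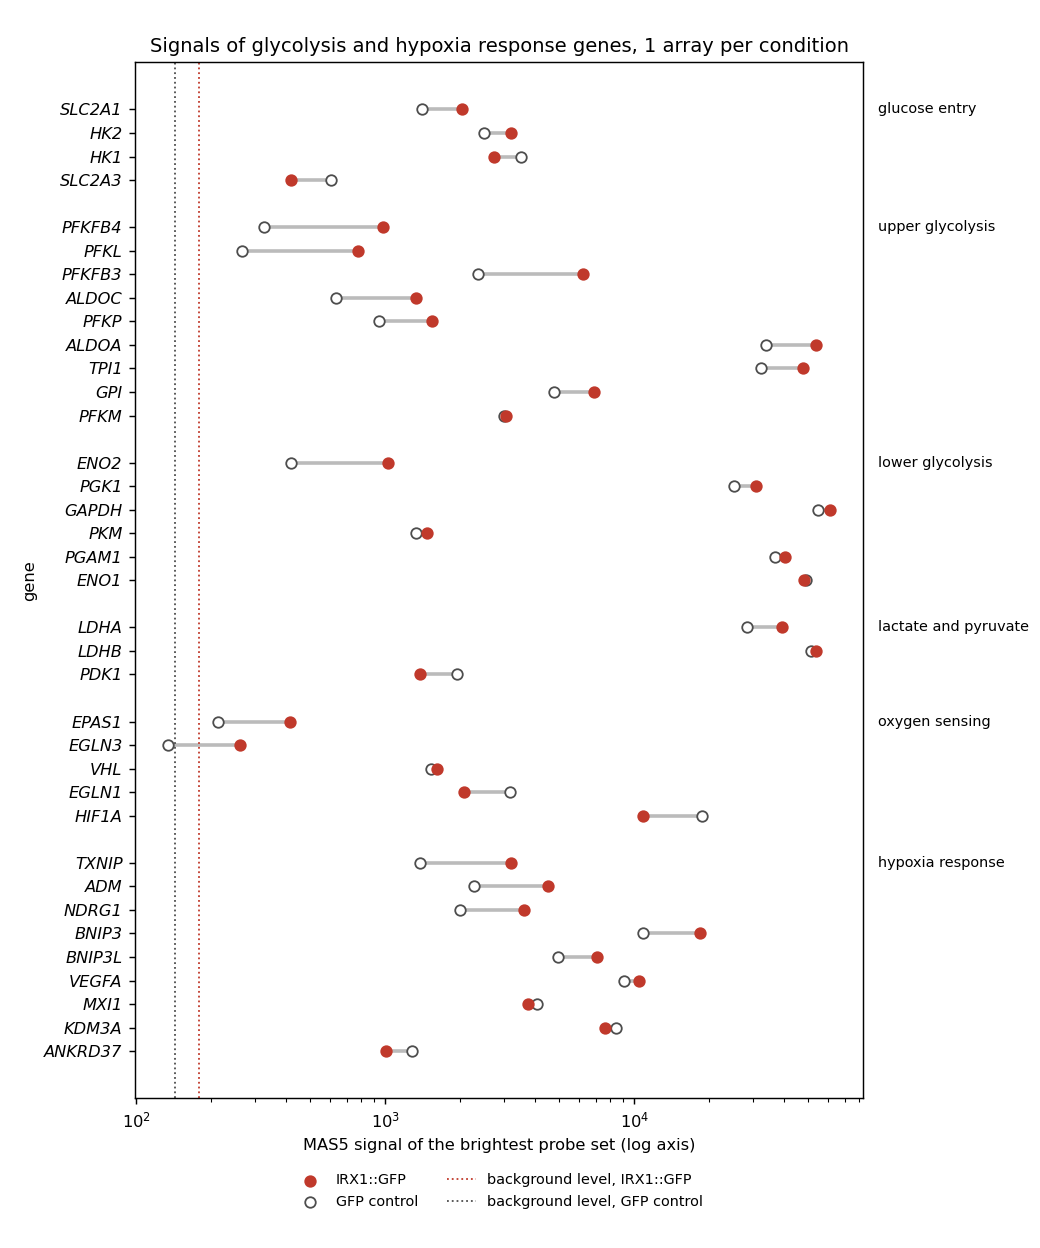
MAS5 signal (x, log axis) of the brightest probe set of each of 36 genes (y), with IRX1::GFP as filled red points and GFP control as open points, 1 array each, and dotted lines at the background of each array. PFKFB4, PFKL, PFKFB3, ENO2 and TXNIP have the widest gaps, EGLN3 alone reaches under background, and positions of different genes on the x axis are not comparable as levels.

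**Figure D2:**
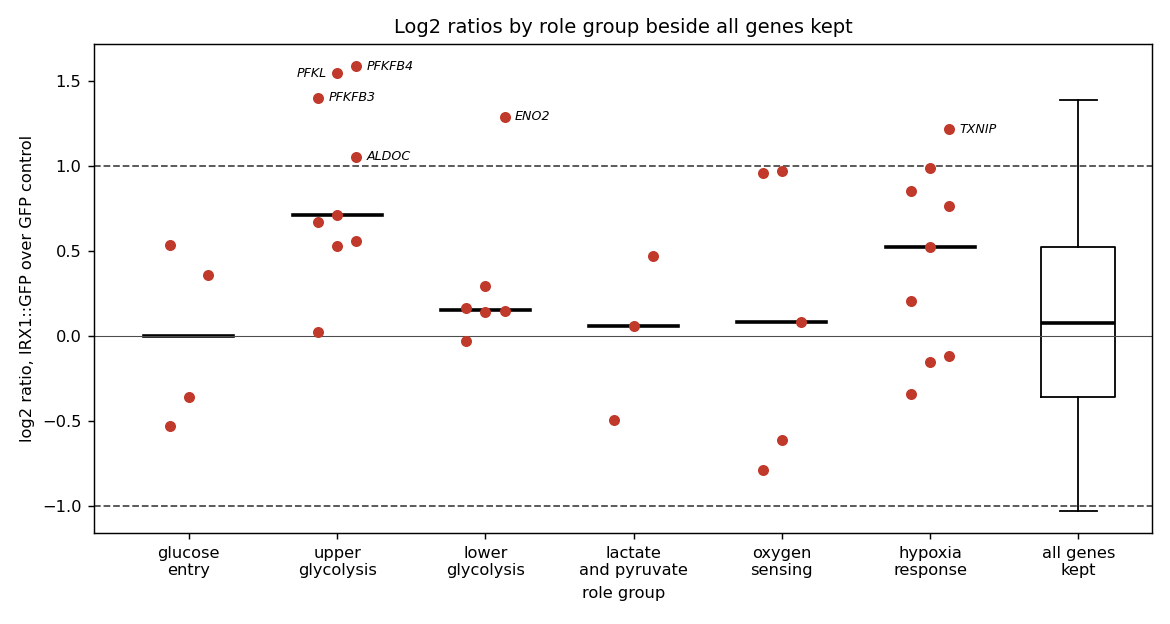
Log2 of the signal with IRX1::GFP divided by that in the GFP control (y) of the 36 genes by role group (x), each red point 1 gene and each black line the group median, with dashed lines at 2-fold. The box on the right gives the median, quartiles and 5th to 95th percentiles of 12193 genes kept, and upper glycolysis has the highest group median, 0.71.

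Glucose entry showed no common direction. SLC2A1, the glucose transporter GLUT1 that most dividing cells use, read 2031 with IRX1::GFP and 1400 in the GFP control, 1.45-fold higher. SLC2A3, the high-affinity transporter GLUT3, read 419 with IRX1::GFP and 604 in the GFP control, 1.44-fold lower, but its other probe set past the filter read 248 with IRX1::GFP and 211 in the GFP control. The hexokinases, which phosphorylate glucose, differed in sign. HK2 read 3182 with IRX1::GFP and 2479 in the GFP control, and HK1 read 2738 with IRX1::GFP and 3512 in the GFP control. Both were within 2-fold, and so were all 4 genes of the group. The dimmer probe sets of HK2 were lower with IRX1::GFP, at 240 with IRX1::GFP and 334 in the GFP control and at 195 with IRX1::GFP and 249 in the GFP control, so the mean over its probe sets had a log2 ratio of -0.16 instead of 0.36. The median log2 ratio of the 4 genes was 0.00.

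Upper glycolysis, from glucose 6-phosphate to the triose phosphates, held 4 of the 6 called genes. They were 44.4% of its 9 genes, beside 10.4% higher among all genes kept. Of these 4, PFKL and PFKFB4 were left out by the filter at the 75th percentile. All 9 genes had a ratio above 0, beside 54.1% of all genes kept, although PFKM turned below 0 after median centring. PFKL, the liver type of phosphofructokinase, read 777 with IRX1::GFP and 266 in the GFP control, 2.92-fold higher. Its other probe set read 640 with IRX1::GFP and 272 in the GFP control, 2.35-fold higher, so both gave the call. PFKP, the platelet type, read 1538 with IRX1::GFP and 940 in the GFP control, 1.64-fold higher. PFKM, the muscle type, read 3065 with IRX1::GFP and 3008 in the GFP control, with a log2 ratio of 0.03, and -0.05 after median centring. The 3 subunit types of 1 enzyme thus covered ratios of 0.03 to 1.55 on the log2 scale.

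PFKFB3 and PFKFB4 encode bifunctional enzymes that make and degrade fructose 2,6-bisphosphate, the strongest activator of phosphofructokinase, and both are known targets of HIF. PFKFB3 read 6236 with IRX1::GFP and 2361 in the GFP control, 2.64-fold higher on its only probe set. PFKFB4 read 975 with IRX1::GFP and 324 in the GFP control, 3.01-fold higher, the largest ratio of the 36 genes. The other PFKFB4 probe set did not pass the filter and went the other way, at 42.4 with IRX1::GFP, not above background, and 155 in the GFP control. The related PFKFB2, from the wider list of pathway genes and named after its value was seen, read 1371 with IRX1::GFP and 1066 in the GFP control, 1.29-fold higher.

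Aldolase, which cleaves fructose 1,6-bisphosphate, had a ratio above 0 in both forms. ALDOC, the form of the brain, read 1323 with IRX1::GFP and 636 in the GFP control, 2.08-fold higher, but its log2 ratio was 0.98 after median centring, 0.93 after loess and just under the limit, at 1.00 when rounded, after quantile normalization. ALDOA, the form of muscle and most other tissues, read 53724 with IRX1::GFP and 33773 in the GFP control on its brightest probe set, 1.59-fold higher. Its other probe sets were 1.54-fold and 2.64-fold higher, the larger value from signals of 11836 with IRX1::GFP and 4478 in the GFP control. GPI, which converts glucose 6-phosphate to fructose 6-phosphate, read 6878 with IRX1::GFP and 4760 in the GFP control, 1.45-fold higher. TPI1, which interconverts the triose phosphates, read 47440 with IRX1::GFP and 32175 in the GFP control, 1.47-fold higher, and its 3 probe sets had log2 ratios of 0.28 to 0.71. The median log2 ratio of upper glycolysis was 0.71, and it lay between 0.63 and 0.90 under the alternatives that gave one.

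Lower glycolysis, from the triose phosphates to pyruvate, was close to even on the brightest probe set of each gene, apart from ENO2. ENO2, the neuronal enolase and a gene that responds to hypoxia, read 1025 with IRX1::GFP and 419 in the GFP control, 2.45-fold higher on its only probe set. ENO1, the enolase of most tissues, read 48154 with IRX1::GFP and 49150 in the GFP control on its brightest probe set. The other ENO1 probe sets past the filter were higher. The brighter of them read 31724 with IRX1::GFP and 17923 in the GFP control, which is 1.77-fold. The dimmer read 1376 with IRX1::GFP and 966 in the GFP control, which is 1.42-fold. The 3 ENO1 probe sets thus had log2 ratios of -0.03 to 0.82. The muscle enolase ENO3, no member of the 36 and named after its value was seen, read 1528 with IRX1::GFP and 730 in the GFP control. This was 2.09-fold higher, and under 2-fold after median centring.

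GAPDH, which oxidises glyceraldehyde 3-phosphate and is often used to normalise other genes, read 61162 with IRX1::GFP and 54587 in the GFP control, 1.12-fold higher. Its 3 probe sets had log2 ratios of 0.16 to 0.25. The array control probe sets for the 5-prime end, the middle and the 3-prime end of GAPDH had log2 ratios of 0.48, 0.40 and 0.21, so the size moved with the position along the transcript. PGK1, which makes ATP in the next step, read 30739 with IRX1::GFP and 25076 in the GFP control, 1.23-fold higher, with a log2 ratio of -0.02 where only _at probe sets were used. Of its other probe sets, 3 were higher, with 12378 against 9233, 6399 against 5661 and 371 against 240, and 2 were lower, with 7074 against 7180 and 263 against 293, each IRX1::GFP against GFP control. PGAM1, the mutase of phosphoglycerate, read 40482 with IRX1::GFP and 36639 in the GFP control. PKM, the pyruvate kinase of muscle and tumour cells, read 1469 with IRX1::GFP and 1329 in the GFP control. The dimmer PKM probe set read 472 with IRX1::GFP and 332 in the GFP control, 1.42-fold higher. The sign of GAPDH turned after quantile normalization, where its log2 ratio was -0.04. Of the 6 genes, 1 (16.7%) was called higher and 0 lower, beside 10.4% higher and 5.34% lower among all genes kept. A ratio above 0 was seen in 5 (83.3%), beside 54.1% of all genes kept, and the median log2 ratio was 0.15. With the mean over the probe sets of each gene the median was 0.27.

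**Figure D3:**
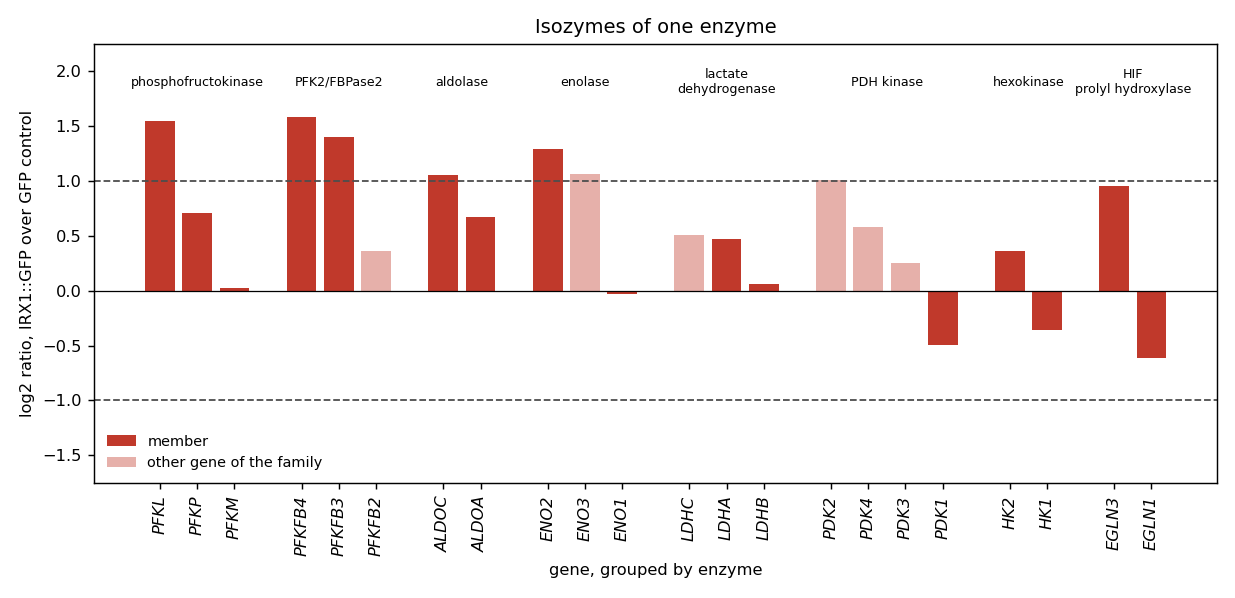
Log2 of the signal with IRX1::GFP divided by that in the GFP control (y) for genes that encode forms of the same enzyme (x), dark bars for the 36 genes and light bars for other genes of the family, 1 array per condition, dashed lines at 2-fold. Within phosphofructokinase, aldolase and enolase the liver, brain and neuronal forms PFKL, ALDOC and ENO2 have the tallest bars, and the GFP control signal of EGLN3 was under background.

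Lactate dehydrogenase converts pyruvate to lactate and back. LDHA, the form that favours lactate production, read 39284 with IRX1::GFP and 28332 in the GFP control, 1.39-fold higher. LDHB, the form that favours pyruvate, read 53434 with IRX1::GFP and 51178 in the GFP control, 1.04-fold higher, and its other probe set had a log2 ratio of 0.00. The sign of LDHB turned under 3 scalings, with a lowest log2 ratio of -0.15. PDK1, the kinase that shuts off pyruvate dehydrogenase and a known target of HIF, read 1381 with IRX1::GFP and 1942 in the GFP control, 1.41-fold lower. The dimmer PDK1 probe set past the filter read 276 with IRX1::GFP and 283 in the GFP control. All 3 genes of this group were within 2-fold. The other kinases of this family were taken from the wider list and named after their values were seen. PDK2 was 2.01-fold higher, at 812 with IRX1::GFP and 404 in the GFP control, but its brightest probe set fell under 2-fold after median centring. The other PDK2 probe set read 376 with IRX1::GFP and 124 in the GFP control, which was not above background, so it was at least 2.62-fold higher. PDK3 and PDK4 had log2 ratios of 0.25 and 0.58 on the brightest probe set. The 5 PDK3 probe sets past the filter had log2 ratios of -0.49 to 0.66.

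The genes of oxygen sensing parted in sign, with none called. HIF1A, the oxygen-regulated subunit of HIF in most cells, read 10801 with IRX1::GFP and 18670 in the GFP control, 1.73-fold lower on its only probe set, the lowest ratio of the 36 genes. EPAS1, which encodes the related subunit HIF-2 alpha, read 416 with IRX1::GFP and 212 in the GFP control, 1.96-fold higher, while its other 2 probe sets were under background on both arrays. EGLN1, the main prolyl hydroxylase that marks HIF, read 2069 with IRX1::GFP and 3159 in the GFP control, 1.53-fold lower. On the remaining probe sets past the filter EGLN1 was 1.78-fold and 1.43-fold lower, so all 3 had the same sign. EGLN3, a prolyl hydroxylase that is itself induced by HIF, read 261 with IRX1::GFP and 134 in the GFP control, which was not above background, so it was at least 1.82-fold higher on this probe set, which passed the filter only through its IRX1::GFP signal. Its other probe set did not pass the filter and read 159 with IRX1::GFP, not above background, and 163 in the GFP control, a log2 ratio of -0.04. VHL, the substrate receptor of the ubiquitin ligase, read 1607 with IRX1::GFP and 1519 in the GFP control. The median of the 5 genes, 0.08, stood between genes on both sides of 0, and it was -0.61 with a filter at the 75th percentile, which left out EPAS1 and EGLN3.

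Of 9 hypoxia response genes, 1 (11.1%) was called higher and 0 lower, beside 10.4% higher and 5.34% lower among all genes kept. The share higher was thus close to that of the background. A ratio above 0 was seen in 6 (66.7%), beside 54.1% of all genes kept, and 3 were below 0. TXNIP binds thioredoxin, limits glucose uptake and is transcribed when glucose metabolites build up. It read 3208 with IRX1::GFP and 1379 in the GFP control, 2.33-fold higher. Its dimmer probe sets read 992 with IRX1::GFP and 626 in the GFP control, 1.59-fold, and 651 with IRX1::GFP and 280 in the GFP control, 2.32-fold, so 2 of 3 passed 2-fold. ADM, which encodes the vasodilator peptide adrenomedullin, read 4505 with IRX1::GFP and 2271 in the GFP control, 1.98-fold higher and just short of the 2-fold limit. Its log2 ratio of 0.99 passed the limit after quantile normalization, at 1.05, and after loess, at 1.07. EPAS1, ADM and EGLN3 lay within 0.05 below the limit on the log2 scale, EGLN3 from a GFP control signal not above background. ALDOC was the called gene nearest to the limit, at 1.06.

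BNIP3 and BNIP3L, receptors that mark mitochondria for autophagy, had more signal with IRX1::GFP on every probe set. BNIP3 read 18363 with IRX1::GFP and 10807 in the GFP control on the brighter and 7241 with IRX1::GFP and 4457 in the GFP control on the dimmer. BNIP3L read 7094 with IRX1::GFP and 4925 in the GFP control on the brighter and 4949 with IRX1::GFP and 2838 in the GFP control on the dimmer. These 4 probe sets had log2 ratios of 0.53 to 0.80. NDRG1, a hypoxia-induced gene of growth arrest and differentiation, read 3594 with IRX1::GFP and 1990 in the GFP control, 1.81-fold higher. VEGFA, the growth factor of blood vessels, read 10448 with IRX1::GFP and 9049 in the GFP control, 1.15-fold higher. Its dimmer probe sets read 1679 against 1331, 1003 against 792 and 641 against 826, each IRX1::GFP against GFP control, so 1 of 4 was below 0. ANKRD37, a small ankyrin repeat gene induced by HIF, read 1010 with IRX1::GFP and 1278 in the GFP control, 1.27-fold lower. KDM3A, a demethylase of histone H3 lysine, read 7596 with IRX1::GFP and 8447 in the GFP control, and MXI1, an antagonist of MYC, 3751 with IRX1::GFP and 4065 in the GFP control. The median log2 ratio of the group was 0.53.

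**Figure D4:**
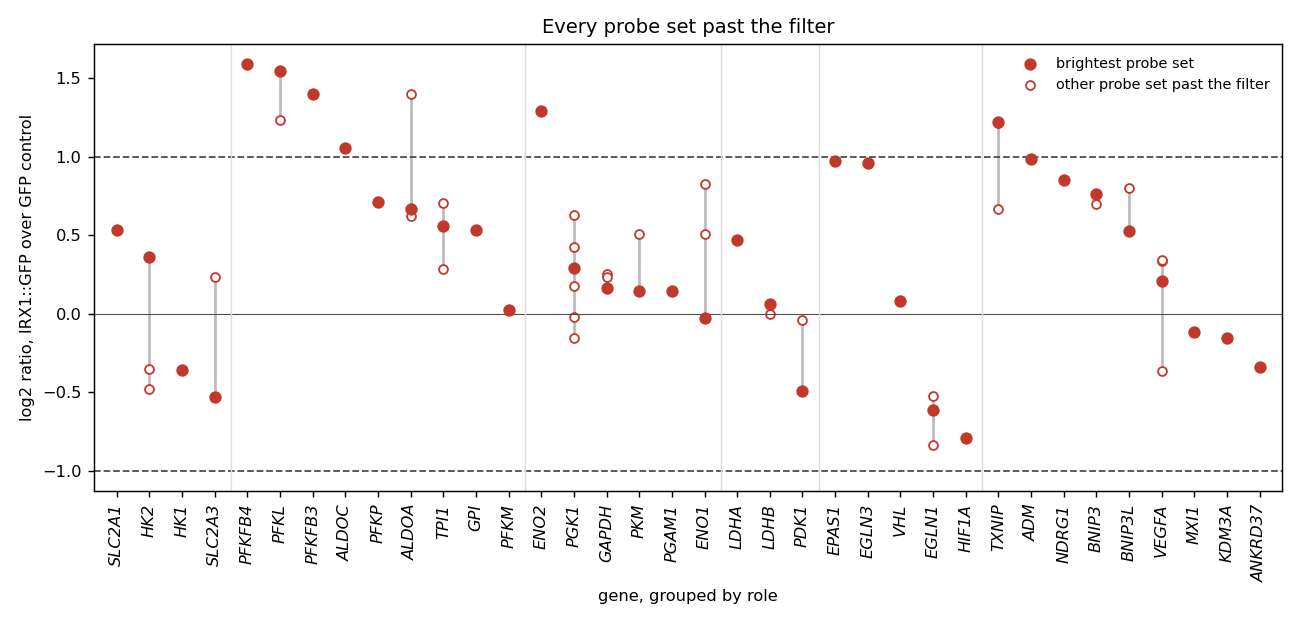
Log2 of the signal with IRX1::GFP divided by that in the GFP control (y) for all 65 probe sets past the filter of the 36 genes (x, grouped by role), the brightest filled and the others open, 1 array per condition, dashed lines marking 2-fold. PFKL lies above the upper line on both probe sets, TXNIP on 2 of 3, ALDOA only on a dimmer one, and HK2, SLC2A3, PGK1, ENO1 and VEGFA have probe sets on both sides of 0.

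Support from more than 1 probe set was uneven. Of the 36 genes, 16 had several probe sets past the filter and 20 had 1. The probe sets had the same sign in 11 of the 16, and they were on both sides of 0 in HK2, SLC2A3, PGK1, ENO1 and VEGFA. Of the 6 called genes, PFKL and TXNIP had several probe sets past the filter, and PFKFB3, PFKFB4, ALDOC and ENO2 had 1 each. The probe sets of ALDOA, TPI1, GAPDH, PGK1, PGAM1, ENO1 and LDHB, among others, may also read close copies in the genome, such as processed pseudogenes. Their values are uncertain in that respect, and this was not tested.

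None of the brightest genes reached 2-fold on its brightest probe set, although a dimmer probe set of ALDOA was 2.64-fold higher. With the filter at the 75th percentile 6.68% of all genes were higher and 5.41% lower, and the shares in the top 2% were not computed. ALDOA, TPI1, GAPDH, PGK1, PGAM1, ENO1, LDHA and LDHB lay in the top 2% of signals on both arrays, and these 8 had log2 ratios of -0.03 to 0.67 and a median of 0.23. The other 28 genes had a median of 0.53, with 6 (21.4%) called higher, beside 10.4% of all genes kept. The highest signal on either array was 94629, and whether such bright probe sets compress a difference was not tested.

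A wider list of 99 other genes of glycolysis and the hypoxia response was described in the same way, and 76 of them were kept. At 2-fold 8 were higher (10.5%) and 2 lower (2.63%), with a median log2 ratio of 0.01, beside 10.4% higher and 5.34% lower among all genes kept, so the share higher was that of the background. The largest ratio was that of HMOX1, the heme oxygenase that answers hypoxia and oxidants, at 29658 with IRX1::GFP and 6620 in the GFP control, 4.48-fold higher. SLC2A6, of the glucose transporter family, read 917 with IRX1::GFP and 333 in the GFP control, 2.75-fold higher. P4HA2, a prolyl hydroxylase of collagen, read 4359 with IRX1::GFP and 1647 in the GFP control, 2.65-fold higher, and 2.16-fold on its other probe set. ARRDC4, an arrestin that like TXNIP is switched on by the glucose sensor MondoA, read 1359 with IRX1::GFP and 529 in the GFP control, 2.57-fold higher. The paired CACGAG marked in TXNIP had 0 matches in the ARRDC4 window. ELOB, the elongin B of the VHL ligase, was 2.45-fold higher on its brightest probe set, at 29642 with IRX1::GFP and 12081 in the GFP control, and 1.31-fold on the other. On the lower side, RORA, a nuclear receptor induced by HIF, read 315 with IRX1::GFP and 965 in the GFP control, 3.06-fold lower. Of its other 4 probe sets, 2 were 2.39-fold and 2.60-fold lower, and 2 were not above background with IRX1::GFP, which gives at least 1.79-fold and at least 2.13-fold lower. PCK2, the mitochondrial phosphoenolpyruvate carboxykinase, read 1008 with IRX1::GFP and 2125 in the GFP control, a log2 ratio of -1.08.

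The groups of the wider list differed in direction. Of 27 genes of glycolysis and its branches, 19 were above 0 and 8 below 0, with a median log2 ratio of 0.25. The 14 genes of oxygen sensing and hypoxia response among the 36 had a median of 0.37, and the 9 response genes alone 0.53. Of 40 further genes of oxygen sensing and the hypoxia response, 14 were above 0 and 26 below 0, with a median of -0.22. Among those below 0, named after their values were seen, BHLHE40, a repressor induced by HIF, read 1006 with IRX1::GFP and 1934 in the GFP control, and PLOD2, a collagen lysyl hydroxylase, 2534 with IRX1::GFP and 4840 in the GFP control. P4HA1 read 3422 with IRX1::GFP and 4790 in the GFP control, and DDIT4, an inhibitor of mTOR signalling, 25907 with IRX1::GFP and 26568 in the GFP control. BSG, the chaperone of the lactate transporters and likewise named after its value was seen, read 3556 with IRX1::GFP and 1820 in the GFP control, 1.95-fold higher. The difference between the lists was not tested.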

How the data were processed

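The deposited table held 1 MAS5 signal, an intensity on a linear scale, per probe set and array. The submitters' processing notes name MAS5, with a version not given in the sources used here. Both columns had a mean of 1000 when the lowest and highest 2% were left out. Of 54675 probe sets, 62 of them array controls, 41097 had 1 gene symbol, 1801 had several and 11777 were unnamed here. Symbols were updated by gene identifier from RefSeq's table for GRCh38.p14, which held 41043 of the 41097, and no gene coordinates were used. A log2 ratio, IRX1::GFP over the GFP control, was computed from the brightest probe set of each gene, 12193 genes in all past the filter at the 50th percentile. No test was made with a single array in each condition, and precision is limited by the number of arrays.

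The 39 symbols, the role groups, the wider list and the markers were chosen with earlier results of these data known. The rule for named genes took members called at 2-fold, at least 3 members of each role group, and of the wider list up to 6 genes with the largest and up to 6 with the smallest ratio among those changed 2-fold. Genes outside it are marked in the text. Alternatives were quantile normalization, median centring, removal of a loess trend with signal (span 0.3), no filter, filters at the 75th percentile and at the olfactory receptor level, raising low signals to the 50th percentile, the mean over probe sets, only _at probe sets, and probe sets in place of genes. The steps were tested on signals simulated for IRX1::GFP against GFP control. The 31 promoters came from the RefSeq promoter table of GRCh38.p14, with the start listed before the others where a gene had several, as 13 did. Python 3.11.15, numpy 2.4.6, pandas 2.3.3, statsmodels 0.14.6 and matplotlib 3.10.9 were used.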

Additional observations from a re-analysis of the deposited data

How the results depend on the processing

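No paired analysis was possible because the 2 conditions had a single array each, and for the same reason neither could be left out. Of the 36 genes, 30 kept the sign of their ratio and 34 their side of the 2-fold limit under all alternatives that gave a value, with ALDOC and ADM as the exceptions to the second and HK2, PFKM, GAPDH, PGK1, ENO1 and LDHB to the first. The count of genes at least 2-fold lower was 0 under all 10 alternatives, and the median log2 ratio of the genes lay between 0.25 and 0.45. Under the 75th percentile filter 3 of 30 genes were higher, since PFKL, PFKFB4 and ENO2 were left out, and over all genes 513 were higher and 415 lower. With only _at probe sets 3 of 18 genes (16.7%) were higher, beside 10.2% of all 9302 genes. Without a filter 6 of 36 (16.7%) were higher, beside 3456 higher (17.5%) and 1983 lower (10.0%) of all 19775 genes. Of the wider list 13 of 93 genes were higher without a filter, beside the 17.5% of all genes. Under the 75th percentile filter 1 of 57 was lower, beside 5.41% of all genes. After median centring 6 of 76 were higher and 4 lower, against 8 and 2 before, with PDK2 and ENO3 no longer called. Of all genes 9.14% were higher and 6.35% lower after median centring. The median log2 ratio of oxygen sensing was -0.61 under the 75th percentile filter and -0.61 for _at probe sets alone, 3 genes each, and that of lactate and pyruvate was -0.49 with only _at probe sets, where PDK1 alone was left. The cause of the other differences was not tested. As the mean over its probe sets HK2 had a log2 ratio of -0.16. Raising low signals to the 50th percentile gave EGLN3 a log2 ratio of 0.52 instead of 0.96, and left EPAS1 at 0.97.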

Other observations

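The pentose phosphate pathway branches from glycolysis and makes NADPH and ribose. Of its genes 6 were kept, with 1 (16.7%) past the 2-fold limit upwards and 0 downwards. Among all genes kept 10.4% were higher and 5.34% lower. PGD, the dehydrogenase of phosphogluconate, read 6285 with IRX1::GFP and 2801 in the GFP control, 2.24-fold higher, but its dimmer probe set read 113 with IRX1::GFP, not above background, and 285 in the GFP control, at least 1.59-fold lower. PGLS, the lactonase before it, was 1.80-fold higher, with log2 ratios of -0.12 to 1.70 over its 4 probe sets. TALDO1, the transaldolase, read 10397 with IRX1::GFP and 10375 in the GFP control, and TKT, the transketolase, 13152 with IRX1::GFP and 15008 in the GFP control. PGLS, TALDO1 and TKT were named after their values were seen, as were the genes below.

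Pyruvate dehydrogenase carries pyruvate into the citric acid cycle, and none of its subunit genes was called. PDHA1, the catalytic alpha subunit, read 18658 with IRX1::GFP and 13412 in the GFP control, 1.39-fold higher. PDHB, the beta subunit, read 9827 with IRX1::GFP and 10696 in the GFP control, and DLAT, the acetyltransferase, 3461 with IRX1::GFP and 3323 in the GFP control. PDP1, the phosphatase that switches the complex on, read 3578 with IRX1::GFP and 6031 in the GFP control, a log2 ratio of -0.75. The carrier genes MPC1 and MPC2, which bring pyruvate into mitochondria, had log2 ratios of 0.01 and -0.12 on the brightest probe set. The other MPC2 probe set read 674 with IRX1::GFP and 1153 in the GFP control, a log2 ratio of -0.77.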
